A study of Mus musculus with 4 samples.

Results

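B cells were a small population among the immune cells of the mouse brain tumours: 62 of 13569 kept cells, or 0.457%, met a rule set on the B cell genes Cd79a, Cd79b and Ms4a1. The rule took cells with at least 200 genes and at most 10% of their transcript counts from mitochondrial genes. It asked for at least 3 counts of the 3 marker genes together with at least 2 of the 3 seen. Cells with Cd3e (a gene of the T cell receptor complex) or Siglech (a plasmacytoid dendritic cell gene) were left out. At most 1 count of the macrophage genes C1qa, C1qb and C1qc was allowed. Counts are unique molecular identifiers (UMIs), each standing for 1 captured transcript. The cells came from mIDH1 tumours, which express mutant isocitrate dehydrogenase 1, and wtIDH1 tumours, which express the wild-type enzyme, with 2 single-cell libraries in each group. In all 4 libraries the immune cells had infiltrated the brain tumour of symptomatic C57BL/6 mice in a genetically engineered glioma model, and the labels give neither the number nor the age of the animals nor the gate used to isolate the cells. The labels also do not say whether the libraries of a group came from separate animals, so a p-value measures only the spread between these libraries, which may be technical. The mIDH1 libraries, replicate 1 then 2, gave 24 and 12 B cells of 3767 and 3611 kept cells, and the wtIDH1 libraries gave 12 and 14 of 3136 and 3055. The deposited matrices hold between 20908476 and 29849183 UMIs per library, and the B cells alone 128842 and 43801 UMIs in the mIDH1 libraries and 37944 and 36222 in the wtIDH1 libraries. Of the kept barcodes, 47 occurred in more than 1 library, and none of them was a B cell.

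B cells carry membrane-bound antibody as their antigen receptor. Each antibody pairs a heavy chain with a kappa or lambda light chain, and Cd79a and Cd79b form the signalling part of the receptor. The heavy chain begins as IgM, is joined by IgD on naive cells, and can be switched to IgG, IgA or IgE, after which some cells become antibody-secreting plasma cells. Young B cells leave the bone marrow soon after gene rearrangement has finished, and in the healthy brain B cells are rare outside its borders.

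The promoters of Cd79a and of Vpreb3 are shown because one belongs to a receptor gene that chose the cells and the other to the highest-ranking gene for which the octamer motif was found. The octamer, ATGCAAAT or ATTTGCAT on the other strand, is the binding motif of the Oct factors, which work in B cells with the co-activator encoded by Pou2af1. Each sequence runs 5′ to 3′ on the plus strand from 250 bases before to 50 after the gene's start in RefSeq on GRCm38.p6, at chr7:24897247-24897546 for Cd79a and chr10:75948050-75948349 for Vpreb3, and capitals mark the octamer.
Cd79a: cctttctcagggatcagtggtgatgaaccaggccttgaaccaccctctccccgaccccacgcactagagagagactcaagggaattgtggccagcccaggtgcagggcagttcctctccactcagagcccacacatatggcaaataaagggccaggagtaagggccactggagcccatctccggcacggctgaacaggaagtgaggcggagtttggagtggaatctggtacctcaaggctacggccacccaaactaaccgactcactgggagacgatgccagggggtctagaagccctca
Vpreb3: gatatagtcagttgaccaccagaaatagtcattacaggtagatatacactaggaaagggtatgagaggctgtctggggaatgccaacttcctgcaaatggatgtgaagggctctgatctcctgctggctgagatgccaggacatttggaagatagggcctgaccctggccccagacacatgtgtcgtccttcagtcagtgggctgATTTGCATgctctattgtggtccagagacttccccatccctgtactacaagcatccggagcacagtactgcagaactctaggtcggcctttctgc
The Vpreb3 octamer begins 45 bases before the gene's RefSeq start, and the Cd79a window holds no exact octamer. Of the 3 marker genes and the 20 genes that stood out most in B cells, 13 matched the promoter table, and 1, Vpreb3, held an exact octamer. The motif occurs in 1.74% of all 32851 promoters of that length. The matches describe letters only. In GENCODE M21 on mm10, Cd79a lies at chr7:24897381-24902197 on the plus strand, Cd79b at chr11:106311341-106314762 and Ms4a1 at chr19:11249675-11266241, both on the minus strand. GENCODE places Vpreb3 at chr10:75943057-75949657 on the plus strand, so the RefSeq start used here, and with it the octamer, lies inside the gene by that annotation. The RefSeq start of Cd79a also lies inside its GENCODE gene, so its window covers fewer than 250 bases before the GENCODE start.

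The B cell share of kept cells overlapped between the genotypes. B cells were 0.637% and 0.332% of kept cells in mIDH1 tumours (95% Wilson intervals 0.429 to 0.946% and 0.190 to 0.580%), against 0.383% and 0.458% in wtIDH1 tumours (0.219 to 0.668% and 0.273 to 0.768%). The intervals cover counting error only. The highest and the lowest share were both from mIDH1 tumours, so the groups overlapped. The means were 0.485 ± 0.216% in mIDH1 and 0.420 ± 0.0535% in wtIDH1 tumours (SD, n = 2 each), a difference of 0.0643 percentage points (exact two-sided permutation p = 1, where 2 against 2 libraries can give no p below 0.33). Neutrophils, whose numbers enter that total, were 647 and 1461 of the kept cells in mIDH1 libraries against 52 and 83 in wtIDH1 libraries. With neutrophils left out of the total, B cells were 0.769% and 0.558% in mIDH1 against 0.389% and 0.471% in wtIDH1 tumours, shares that did not overlap (difference 0.234 percentage points, exact two-sided permutation p = 0.33, the smallest possible). Among all B, T and NK cells, B cells were 3.91% of 614 and 2.98% of 403 in mIDH1 tumours, against 1.85% of 650 and 2.58% of 542 in wtIDH1 tumours. These shares did not overlap, and their means were 3.44 ± 0.658% and 2.21 ± 0.521% (SD, n = 2 each; difference 1.23 percentage points, exact two-sided permutation p = 0.33, the smallest possible).

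The mitochondrial limit set how many B cells were counted, and more so in wtIDH1 tumours. Raising it to 20%, chosen with the data already seen, gave 33 and 13 B cells in mIDH1 libraries against 21 and 26 in wtIDH1 libraries. Of these, 27.3% and 7.69% in mIDH1 and 42.9% and 46.2% in wtIDH1 libraries lay above 10%. Among T cells the same shares were 4.37% and 6.83% in mIDH1 and 9.41% and 6.53% in wtIDH1 libraries. At that limit the mean share of kept cells was 0.551% in mIDH1 and 0.678% in wtIDH1 tumours, a difference of -0.127 percentage points, which is the opposite direction to the value at 10% (exact permutation p = 1). Even within the 10% limit the median mitochondrial share of B cells was high, 7.39% and 5.79% in mIDH1 and 8.04% and 7.79% in wtIDH1 libraries, against 4.70% and 3.54% in mIDH1 and 5.77% and 5.82% in wtIDH1 T cells. Among B, T and NK cells the B cell shares at the 20% limit overlapped between the groups. They were 5.08% and 3.05% in mIDH1 against 2.94% and 4.44% in wtIDH1 libraries (difference 0.375 percentage points). The part of RNA quality in the B cell share was not tested.

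**Figure D1:**
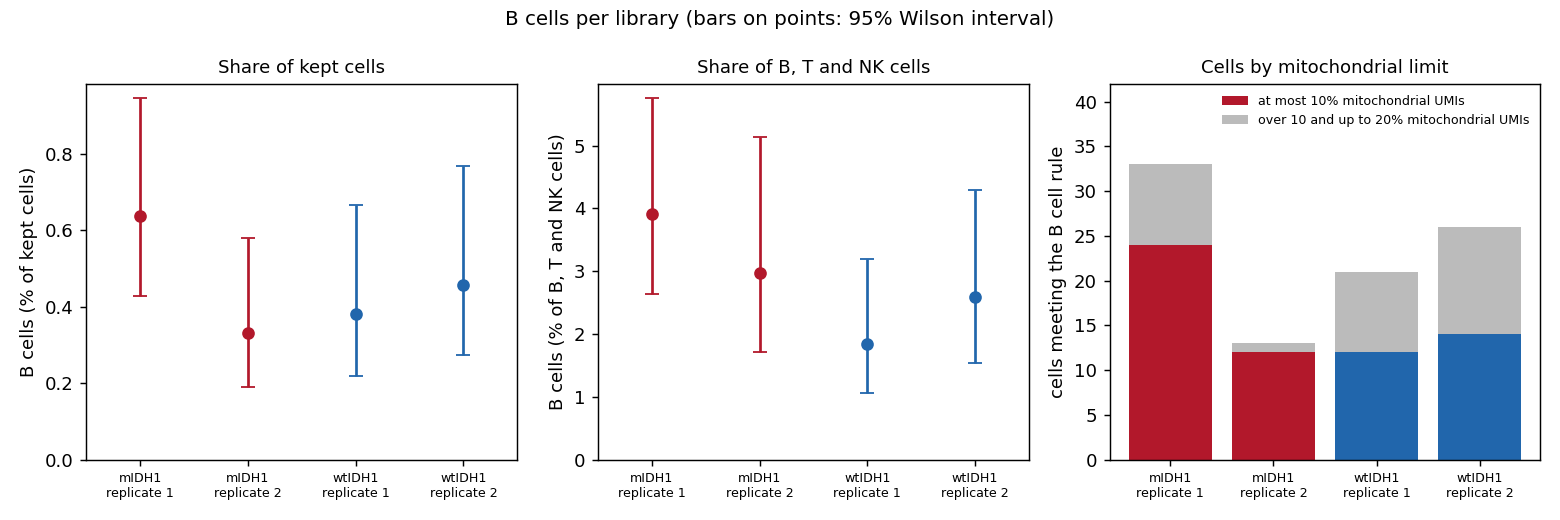
B cells per library, mIDH1 libraries on the left: their share of kept cells, their share of B, T and NK cells (points with 95% Wilson intervals), and the number of cells meeting the rule with at most 10% or with between 10 and 20% mitochondrial UMIs (stacked bars). The shares of kept cells overlap between genotypes, and the grey part of the bars, cells above the 10% limit, holds 9 and 1 cells in mIDH1 and 9 and 12 in wtIDH1 libraries.

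The marker genes, which the rule used and which are therefore a description, were read deeply in most cells. The cells held a median of 16.5 and 18 marker UMIs in mIDH1 libraries and 11 and 12 in wtIDH1 libraries, and 54 of the 62 had more than 7. At the edge of the rule 2 cells had exactly 3 marker UMIs and 1 had 4, and 1 cell with 2 lay just outside. Of 70 cells that met the marker threshold, 8 were left out for Cd3e or C1q genes, 6 of them from mIDH1 replicate 1 and 1 from each wtIDH1 library. Cd79a was seen in 61 of the 62 cells, Cd79b in 60 and Ms4a1, which encodes CD20, in 54.

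Genes outside the rule fitted the label of B cells. Pax5, the transcription factor that holds B cell identity, was at 450 CPM over the summed B cells against 0.142 CPM in all other kept cells. CPM is a gene's UMIs per 1000000 UMIs of the group. A Pax5 UMI was found in 45 of 62 B cells against 0.0646% of T cells. Ebf1, which acts before Pax5 in B cell commitment, was at 1009 CPM against 0.797 CPM in other cells and was seen in 54 B cells. Fcer2a, the low-affinity IgE receptor CD23, was at 174 CPM in B cells against 0.0764 CPM in other cells. The 20 genes of the highest ratio, all at least 92.8 times the level in other cells, also held Vpreb3, Pou2af1, the IgM receptor gene Fcmr, the BAFF receptor gene Tnfrsf13c, the kinase Blk, Bank1, Mzb1, Chst3, Fam129c, Ly6d and Cd55, and 5 antibody constant genes. All 20 genes of a B cell identity list and all 20 of a B cell transcription factor list had UMIs, 20 and 17 of them in every library. These cells were picked from the same libraries, so the ratios carry no test.

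Some of these genes were shared with plasmacytoid dendritic cells, of which 55 were found by Siglech with Bst2 or Ccr9. Ighm was read in 98.2% of them, Ly6d in 80.0%, Iglc3 in 70.9%, Igkc in 47.3% and Mzb1 in 36.4%, while Pax5, Ebf1 and Vpreb3 were read in none, which allows a share of up to 5.45% for each. Median depth was 2706.5 UMIs in B cells, 7213 in plasmacytoid dendritic cells and 5028 in T cells.

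**Figure D2:**
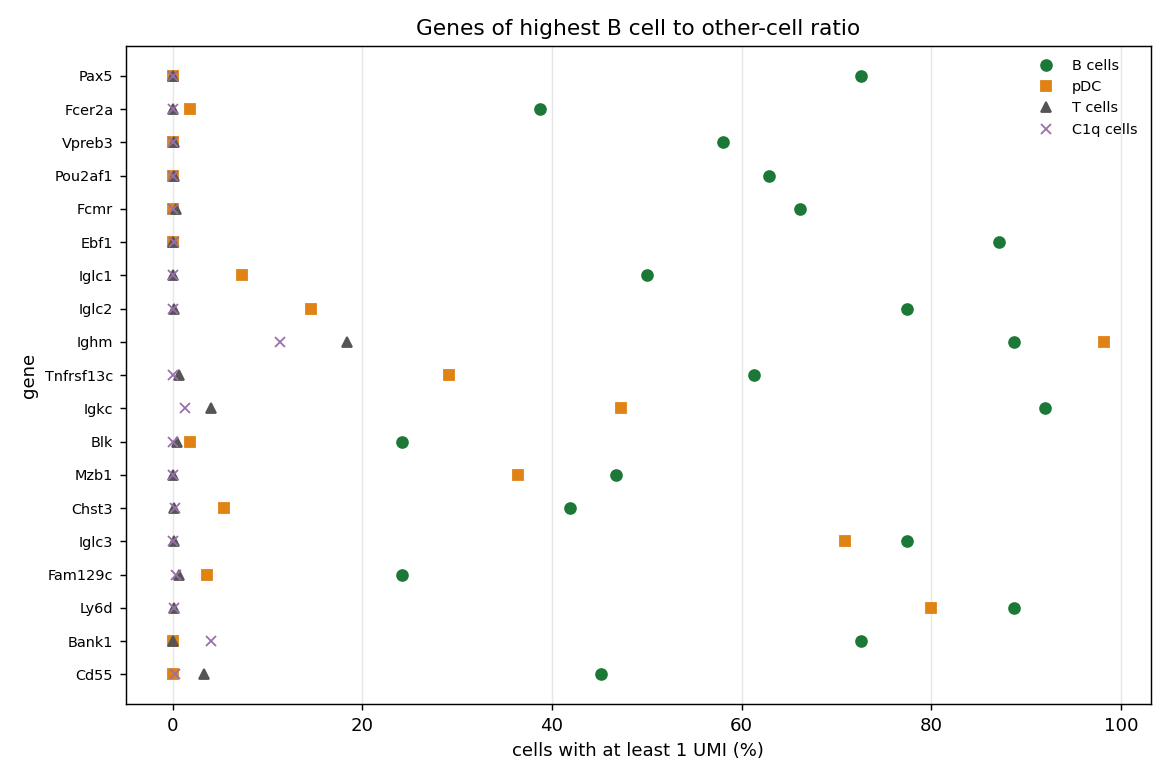
Share of cells with at least 1 UMI of each named gene among those with the highest ratio of B cells to all other kept cells, in the 62 B cells, 55 plasmacytoid dendritic cells (pDC), 1548 T cells and 3609 cells with C1q genes. Pax5 and Ebf1 stand at or near 0 outside B cells, whereas Ighm, Ly6d and Iglc3 are read in most pDC.

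Most B cells had RNA of both heavy chains found on naive cells, which does not by itself identify naive cells. A UMI of both Ighm (the IgM heavy chain) and Ighd (IgD) was found in 39 of the 62 cells, 17 and 4 in mIDH1 and 7 and 11 in wtIDH1 libraries. These include 3 of the 4 cells marked below by precursor genes, which held at most 1 Ighd UMI each. T cells, which do not make antibody, held an Ighm UMI in 18.4% of cells and an Ighd UMI in 0.775%, and the source of these UMIs was not tested. After every cell was thinned to 1000 UMIs, Ighm was read in 85.5% of B cells against 6.60% of T cells, and Ighd in 46.8% against 0.259%. In mIDH1 replicate 2 the 12 cells held 7 Ighd UMIs in 4 cells, although 10 of them had Ighm at a median of 21.5 UMIs. The libraries mIDH1 replicate 1, wtIDH1 replicate 1 and wtIDH1 replicate 2 had Ighd in 17 of 24, 8 of 12 and 11 of 14 cells. The library lowest in IgD was therefore 1 of the 2 mIDH1 libraries, and the groups overlapped.

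Switched and antibody-secreting cells were few and came from mIDH1 tumours. With a switched cell set as at least 3 IgG UMIs and more IgG than Ighm, a definition chosen after the data were seen, 4 and 1 cells were found in mIDH1 and 0 and 0 in wtIDH1 libraries. At the 20% mitochondrial limit the counts were 5 and 1 in mIDH1 and 0 and 0 in wtIDH1 libraries. Of the cells in mIDH1 replicate 1, 1 held 934 Ighg1, 1164 Igkc, 210 Jchain and 509 Slpi UMIs, another held 58 Ighg3 UMIs with 246 of Igkc, and the remaining pair held 20 and 19 Ighg1 UMIs. The cell in mIDH1 replicate 2 held 5 Ighg2c UMIs and 78 of Igkc. Jchain, which joins secreted IgM and IgA, marked antibody-secreting cells at 10 or more UMIs in 2 B cells, both in mIDH1 replicate 1. One was the Ighg1 cell and the other held 4280 Ighm, 4649 Igkc and 116 Jchain UMIs. Antibody genes were 25.1% and 56.0% of the UMIs of these cells. One further cell outside the rule, also in mIDH1 replicate 1, held 566 Jchain and 7033 Igkc UMIs, and the marker rule does not select for plasma cells, which lose Ms4a1. Of the 5 switched cells 4 came from 1 library, and the difference between genotypes was not tested.

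Of 62 cells 7 had no Ighm UMI, 4 and 2 in mIDH1 and 1 and 0 in wtIDH1 libraries, 1 of them the secreting Ighg1 cell, which held 5 UMIs of the MHC class II genes H2-Aa, H2-Ab1 and H2-Eb1. The other 6 held a median of 71.5 class II UMIs (19 to 112) in a median of 7260 UMIs per cell (2606 to 10230), against 13.5 in 2605.5 UMIs for the 54 non-secreting cells with Ighm. The class II counts were not scaled for that difference in depth.

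These rare cells set the summed antibody counts. The single cell richest in Ighm held 83.4% of all Ighm UMIs of the 62 cells, that richest in Igkc 64.2%, that richest in Ighg1 96.0% and that richest in Slpi, a protease inhibitor, 92.5%. Igha had 5 UMIs over all B cells and Ighe had none. Light chains were mixed at the RNA level, with UMIs of both kappa and lambda in 54 cells, and lambda exceeded kappa in 2 and 3 mIDH1 cells and 1 and 2 wtIDH1 cells. T cells held Igkc in 4.01%, Iglc2 in 0.129% and Iglc3 in 0.194% of cells, and plasmacytoid dendritic cells held Igkc in 47.3%, Iglc2 in 14.5% and Iglc3 in 70.9%. The part of RNA from other cells in the mixed light chains was not tested.

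Cells with genes of young B cells were found in mIDH1 replicate 2 and wtIDH1 replicate 2. Rag1, the recombinase that rearranges antibody genes, gave 7 UMIs in 3 cells of mIDH1 replicate 2 and none in the other libraries. Sox4, a transcription factor of early lymphocytes, gave 0 and 13 UMIs in mIDH1 and 0 and 5 in wtIDH1 libraries. Il7r, the receptor for the growth factor of B cell precursors, gave 0 and 10 in mIDH1 and 0 and 6 in wtIDH1 libraries, and Cecr2 gave 0 and 7 in mIDH1 and 0 and 7 in wtIDH1 libraries. In each of these genes replicate 1 of both genotypes stood at 0 and replicate 2 did not, except that wtIDH1 replicate 2 had no Rag1.

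Vpreb3, a gene of the pre-B and immature stages whose promoter is printed above, was also higher in replicate 2 of both genotypes. It gave 22 UMIs in 7 of 24 cells and 52 in 10 of 12 cells in mIDH1 libraries, against 17 in 8 of 12 and 30 in 11 of 14 cells in wtIDH1 libraries. Scaled to CPM these are 171 and 1187 CPM in mIDH1 against 448 and 828 CPM in wtIDH1 libraries, and the groups overlapped. Of the 22 Vpreb3 UMIs of mIDH1 replicate 1, 14 were in the antibody-secreting Ighg1 cell, and they enter the precursor list sum of that library. The earlier surrogate light chain genes were nearly silent, with 1 UMI of Vpreb1, 1 of Igll1 and 0 of Vpreb2, and Rag2, Dntt, Kit and Mme also stood at 0. Over the precursor list 13 of 18 genes had a UMI, and their summed level was 179 and 2557 CPM in mIDH1 and 527 and 1546 CPM in wtIDH1 libraries.

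Cells with precursor genes had few antigen presentation UMIs. At least 3 UMIs of Rag1, Il7r, Sox4 and Myb together, a limit chosen after the data were seen, marked 0 and 3 cells in mIDH1 and 0 and 1 in wtIDH1 libraries. Of these 4 cells, 3 had no UMI of H2-Aa, H2-Ab1 or H2-Eb1, the MHC class II chains that present antigen to helper T cells, and the other had 1. Cells without these class II UMIs numbered 0 and 5 in mIDH1 and 0 and 3 in wtIDH1 libraries, and 4 of these 8 also had none of Cd74, the class II chaperone. The clearest example held 9 Vpreb3, 3 Rag1, 24 Ighm, 10 Ebf1 and 0 Cd74 UMIs in a total of 1902. Class II UMIs per cell had a median of 24 and 1 in mIDH1 and 12.5 and 11 in wtIDH1 libraries, with mIDH1 replicate 2 spread from 0 to 112. The cell cycle list summed to 326 and 457 CPM in mIDH1 and 527 and 1325 CPM in wtIDH1 libraries, and 30 of the 36 Hmgb2 UMIs of wtIDH1 replicate 2, from a chromatin gene of that list, were in the precursor-marked cell of that library. Mki67, a proliferation marker, gave 3 UMIs, all in the antibody-secreting Ighm cell of mIDH1 replicate 1.

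**Figure D3:**
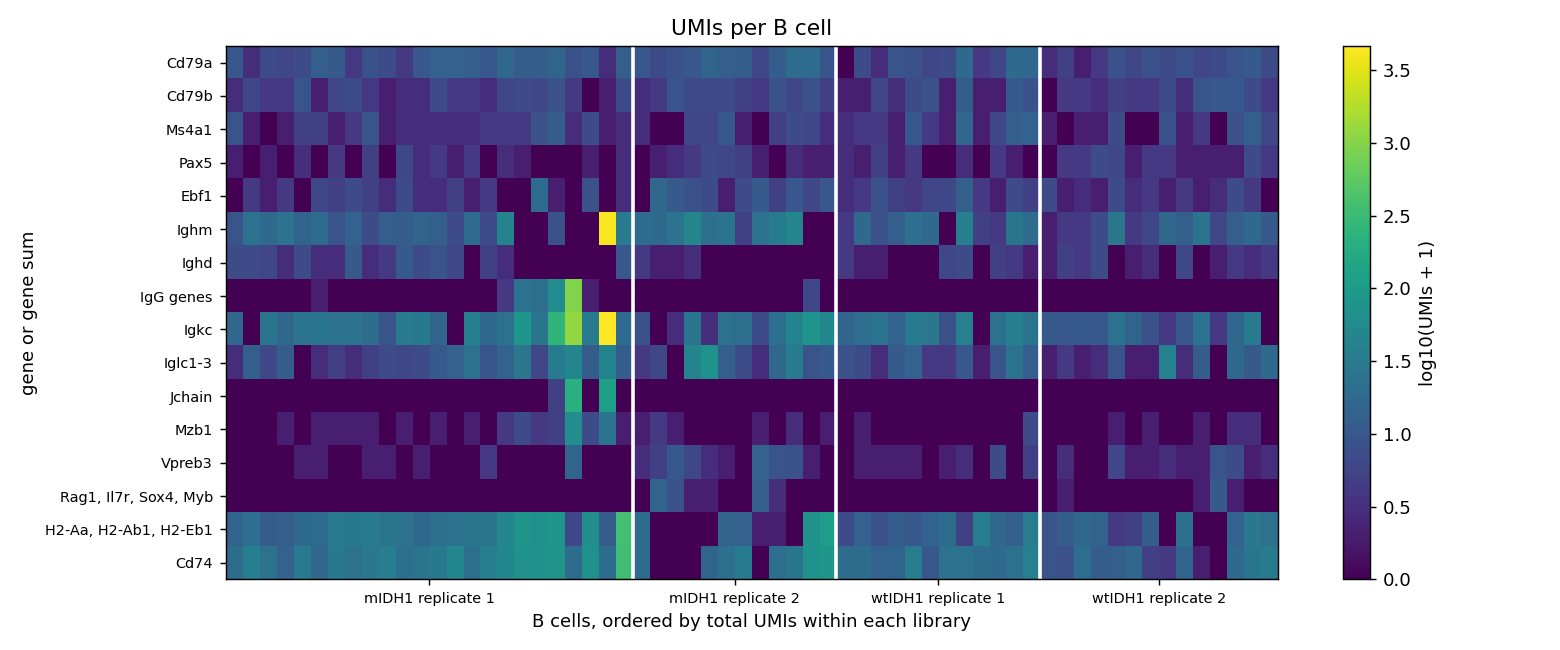
UMIs of marker, antibody, stage and presentation genes in each of the 62 B cells, as log10(UMIs + 1), with cells ordered by total UMIs within each library and mIDH1 libraries on the left. IgG genes and Jchain are bright in a few cells of mIDH1 replicate 1, and cells dark for class II genes lie in mIDH1 replicate 2 and wtIDH1 replicate 2.

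Genes of other B cell subsets and functions were sparse. Of the germinal centre list, 6 of 10 genes had any UMI, and Bcl6, its transcription factor, had 5 UMIs over all B cells. Cd5, a marker of B-1 cells, had 0 UMIs in the 62 cells, which allows a share of cells with a UMI of up to 4.84%. The cytokines Il10, Il6, Ifng and Csf2 stood at 0, while Ltb, a lymphotoxin subunit, was seen in 17 and 8 cells of mIDH1 and 10 and 10 of wtIDH1 libraries. Of the checkpoint genes, Pdcd1 stood at 0, Cd274 (PD-L1) gave 6 and 3 UMIs in mIDH1 and 1 and 6 in wtIDH1 libraries, and Cd86 gave 14 and 3 in mIDH1 and 4 and 1 in wtIDH1 libraries.

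Homing and survival receptors of recirculating B cells were present. Ccr7, a lymph node homing receptor, was seen in 8 and 5 cells of mIDH1 and 4 and 8 of wtIDH1 libraries. Cxcr5, which guides B cells to follicles, was seen in 5 and 4 cells of mIDH1 and 1 and 3 of wtIDH1 libraries. Tnfrsf13c, the receptor through which the ligand BAFF keeps mature B cells alive, was seen in 16 and 7 cells of mIDH1 and 8 and 7 of wtIDH1 libraries. Tnfsf13b, which encodes BAFF, had no UMI in B cells. It was read in 13.3% and 10.5% of C1q cells in mIDH1 libraries, against 18.1% and 21.7% in wtIDH1 libraries, and over their summed UMIs it stood at 21.8 and 19.0 CPM in mIDH1 against 32.3 and 43.5 CPM in wtIDH1 libraries.

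Interferon-induced genes marked 1 wtIDH1 library. Usp18, which damps interferon signalling, gave 10 UMIs in 3 cells of wtIDH1 replicate 1 and none in the other libraries, and Ifit2 gave 12 UMIs in 5 cells there and none elsewhere. Over the 24 listed genes the summed level was 3151 and 2511 CPM in mIDH1 libraries and 6747 and 2291 CPM in wtIDH1 libraries, so the wtIDH1 libraries lay on both sides of the mIDH1 ones.

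Some cells carried RNA of other cell types. One cell of mIDH1 replicate 1 held 157 S100a8 and 158 S100a9 UMIs, genes of neutrophils, and made up 94.6% and 96.3% of those UMIs over all B cells. The largest cell, with 19516 UMIs in the same library, held 25 Ccl17 and 343 Cd74 UMIs, and 1 cell of wtIDH1 replicate 1 held 37 Gzma UMIs. The summed neutrophil list was 2639 and 297 CPM in mIDH1 and 26.4 and 27.6 CPM in wtIDH1 B cells, with 9 of 12 genes seen and Ngp, Camp and Mmp9 at 0. The macrophage or monocyte list summed to 838 and 1096 CPM in mIDH1 and 369 and 1353 CPM in wtIDH1 B cells, with 10 of 13 genes seen and C1qa, Adgre1 and Ms4a7 at 0. The NK cell list summed to 46.6 and 22.8 CPM in mIDH1 and 1239 and 27.6 CPM in wtIDH1 B cells. The T cell list lay between 27.6 and 79.1 CPM, and Tmem119, P2ry12 and Sall1 of microglia and Sox2, Olig2 and Gfap of tumour or glia stood at 0. Scrublet, a doublet caller, marked at most 0.0982% of a library by its own threshold and so did not work here. Among the highest scores were 4 B cells, 3 of mIDH1 replicate 1 and 1 of wtIDH1 replicate 1. Those of mIDH1 replicate 1 were the S100a8 cell and both antibody-secreting cells. The Ccl17 cell and the Gzma cell were not among the highest scores. Doublets were kept in the values above.

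Between genotypes, UMIs were summed over the B cells of each library and compared with edgeR. Of 585 genes tested, 0 passed an adjusted p of 0.05 (edgeR quasi-likelihood test, Benjamini-Hochberg adjustment; background 0% called, lowest adjusted p 0.0766), while 154 had an unadjusted p under 0.05. DESeq2 called 64 of 500 genes, 63 higher and 1 lower in mIDH1. The libraries of the groups did not overlap in 361 genes, 61.7% of those tested, 23.4% higher and 38.3% lower in mIDH1. For 1 gene, such separation amounts to an exact permutation p of 0.33, the smallest possible with these libraries. Genes that passed the low-count filter only through 1 group, such as Gng5 and Bcl11a, raise this share, so it carries no support. The genes of lowest p did not pass, and their values follow.

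Gng5, a G protein gamma subunit, had 41 and 16 UMIs in mIDH1 against 1 and 1 in wtIDH1 sums, or 342 ± 33.3 CPM against 27.0 ± 0.886 CPM (SD, n = 2 each; log2 fold change 3.78 ± 0.63 SE, edgeR adjusted p = 0.0766). Tmsb10, an actin-binding peptide, stood at 2173 and 4087 CPM in mIDH1 against 659 and 939 CPM in wtIDH1 B cells (log2 fold change 2.16 ± 0.37 SE, edgeR adjusted p = 0.0766). Gapdh, a glycolysis enzyme, stood at 1025 and 731 CPM in mIDH1 against 184 and 193 CPM in wtIDH1 B cells (log2 fold change 2.48 ± 0.45 SE, edgeR adjusted p = 0.0766). The ribosomal protein genes Rpl34 and Rps27 had log2 fold changes of 1.89 and 1.60 (edgeR adjusted p = 0.0766 each). Gng5 and Gapdh passed the low-count filter only through the mIDH1 libraries, where they were high, so their direction carries no support.

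In the other direction, Bcl11a, a transcription factor needed for B cell development, stood at 179 and 228 CPM in mIDH1 against 949 and 828 CPM in wtIDH1 B cells (log2 fold change -1.92 ± 0.36 SE, edgeR adjusted p = 0.0766). Zfp36l2, an RNA-binding protein that promotes mRNA decay, stood at 233 and 297 CPM in mIDH1 against 975 and 911 CPM in wtIDH1 B cells. Scd1, a fatty acid desaturase, Satb1, a chromatin organiser, and Arap2 had log2 fold changes of -1.67, -2.05 and -2.02, and with Zfp36l2 an edgeR adjusted p of 0.0822 each. In all 5 genes both mIDH1 libraries lay below both wtIDH1 libraries. The genes were chosen for low p in these same libraries, so this order carries no support. Bcl11a, Satb1 and Arap2 passed the low-count filter only through the wtIDH1 libraries, where they were high.

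Gene lists gave no call in either direction. Of 13 tested B cell identity genes, 4 lay above 0 and 9 below, with a median log2 fold change of -0.25 beside -0.03 over all genes tested. The 12 tested transcription factors, of 20 listed, had a median of -0.70, with 9 below 0. Among them Bcl11a passed the low-count filter only through the wtIDH1 libraries. The direction of this list was therefore partly set by the filter and carries no support. The 9 tested receptor signalling genes had a median of -0.40. That is the value of Cd79b, a gene the rule used to pick the cells, so it carries no support. The 7 tested class II genes had a median of 0.59. In mIDH1 replicate 1 the largest cell alone held 131 of the 425 H2-Aa and 343 of the 1148 Cd74 UMIs of that library. The 4 tested genes of hypoxia and glycolysis, of 22, had a median of 1.61 with all above 0. Pkm, a glycolysis enzyme, had 51 and 15 UMIs in mIDH1 against 2 and 7 in wtIDH1 sums. In wtIDH1 sums Gapdh had 7 and 7 UMIs and Ldha, another glycolysis enzyme, 8 and 5. Pkm, Gapdh and Ldha passed the low-count filter only through the mIDH1 libraries. The shared direction of the tested genes was therefore partly set by the filter and carries no support. Cd52, a surface glycoprotein of lymphocytes, stood at 3927 and 3721 CPM in mIDH1 against 1634 and 690 CPM in wtIDH1 B cells (log2 fold change 1.93 ± 0.44 SE, edgeR adjusted p = 0.0822). Cd69, an early activation antigen, stood at 310 and 274 CPM in mIDH1 against 1160 and 773 CPM in wtIDH1 B cells (log2 fold change -1.46 ± 0.40 SE, edgeR adjusted p = 0.0897). Marginal zone, germinal centre and cell cycle lists had no gene with enough UMIs to be tested.

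Ribosomal protein genes, a group singled out after the values were seen, lay to one side. Of 85 such genes 80 were tested and 0 passed in edgeR, 57 had an unadjusted p under 0.05, all higher in mIDH1, and their median log2 fold change was 1.07 beside -0.19 for the other 505 genes. Their libraries did not overlap, higher in mIDH1, in 67 of the 80 genes, beside 75 of the other 505. The median share of ribosomal protein UMIs per cell was 22.0% and 19.6% in mIDH1 against 15.4% and 14.1% in wtIDH1 B cells. The same order held in the other classes measured: T cells had 21.8% and 27.4% in mIDH1 against 14.2% and 15.6% in wtIDH1 libraries, and plasmacytoid dendritic cells 19.0% and 20.1% in mIDH1 against 11.3% and 11.3% in wtIDH1 libraries. In neutrophils it was 4.20% and 4.44% in mIDH1 against 2.97% and 2.84% in wtIDH1 libraries. Whether it reflects the tumours or the libraries cannot be told apart.

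**Figure D4:**
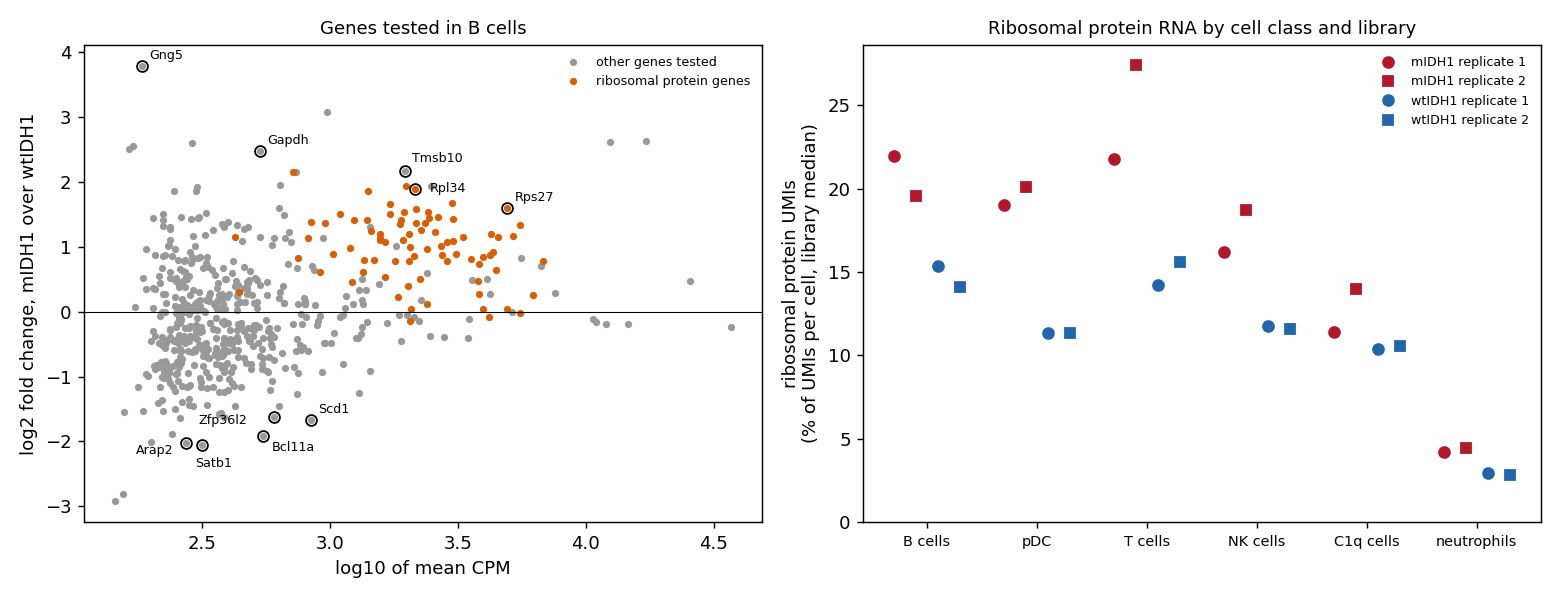
Left, log2 fold change (mIDH1 over wtIDH1) of the 585 genes tested in B cells against the log10 of their mean CPM, with ribosomal protein genes in orange and 10 genes of lowest p (5 in each direction) ringed and named, none of which passed. Right, the median share of ribosomal protein UMIs per cell in each class and library (circles replicate 1, squares replicate 2), with the mIDH1 libraries (red) above the wtIDH1 libraries (blue) in all 6 classes.

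The count of calls moved with the libraries and settings used. Without mIDH1 replicate 1 it was 78, without mIDH1 replicate 2 it was 75, and without either wtIDH1 library it was 0, each with a lone library in 1 group that is assumed to vary like the others. Scaling by library totals alone, which moved the median log2 fold change from -0.03 to -0.43, called 54 genes, 15 higher and 39 lower in mIDH1.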

How the data were processed

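Single-cell RNA was measured in 4 libraries. Per the labels' protocols and the submitters' processing notes, the authors used Cell Ranger 3.1 with alignment to mm10, whereas the deposited file headers give software version 3.0.0. The deposited values are raw UMI counts per gene and barcode, 1 matrix per library, and the barcodes had been filtered by the authors. Free RNA and depth can change whether a gene is read in a cell.

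The 16289 barcodes were cut to 13569 by at least 200 genes and at most 10% mitochondrial UMIs. T cells held at least 2 UMIs of Cd3 genes, and NK cells at least 2 of Ncr1, Klrb1c and Klre1, both without B cell markers. C1q cells held at least 5 C1q UMIs, neutrophils at least 10 UMIs of S100a8 and S100a9 with Csf3r or Cxcr2, and plasmacytoid dendritic cells at least 2 Siglech UMIs. Every share of kept cells has the library as its unit and a 95% Wilson interval, and floors use 3 counts. Sums were tested with edgeR 4.0.16 (trimmed mean scaling, default filter) and DESeq2 1.42.0 in R 4.3.3. On simulated data made from the B cell sums, with 598 genes, changes of 2-fold, 4-fold and 8-fold were found in 34.5, 90.9 and 100% of genes so changed, and 10 unchanged genes were called. Every simulated gene was given the same spread between libraries (common dispersion 0.0665), and no single cell dominated a sum. These rates therefore need not hold for the real sums. Other tools were Python 3.11.15, scanpy 1.11.5, numpy 2.4.6, scipy 1.17.1 and pandas 2.3.3.

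The members and the 31 gene lists were chosen with earlier results of these data known. Named genes are those of the lists and the rule, the 20 of highest ratio to other kept cells with at least 20 UMIs in at least 3 libraries, the 10 most variable among B cells, and, as none passed, the 5 of lowest p in each direction. Some genes that the rule covers are not reported here. Alternatives are in the closing section.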

Additional observations from a re-analysis of the deposited data

How the results depend on the processing

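The difference in B cell share of kept cells kept its direction under the other settings tried but reversed at a 20% mitochondrial limit (-0.127 percentage points) and, among differences without 1 library each, which ran from -0.0881 to 0.217, without mIDH1 replicate 1. The share of lymphocytes kept its direction under every setting tried, with 0.763 to 1.69 percentage points without 1 library each. Its difference fell to 0.375 percentage points at the 20% and 0.307 at the 5% mitochondrial limit, and at both limits the groups overlapped. No permutation of these libraries can pass 0.05. The 0 genes called became 15 at 2 and 43 at 5 marker UMIs, 51 without the highest Scrublet scores, 54 with library totals only, 11 with RLE size factors, 64 with DESeq2 and 62 without a filter on low counts. After the data were seen 3 more settings were added, which gave 13 genes at 20% mitochondrial UMIs, 58 without the antibody-secreting cells and 12 with every B cell thinned to 1000 UMIs. Leaving out 1 library gave 0 to 78 genes. The count stayed at 0 at 5% mitochondrial UMIs, without cells over 1% myeloid UMIs and with at least 10 UMIs over the sums; at 5% no B cell of wtIDH1 replicate 1 was left and 3 libraries were compared. The setting without the highest Scrublet scores also left out both antibody-secreting cells. The cause of the moves in the count was not tested. All 10 named genes kept their direction under every setting that tested them. They were chosen for low p in these same libraries, which did not overlap between the groups, so the kept direction carries no support. With every library kept, the edgeR adjusted p ran from 0.000403 to 0.206 for Gng5 and from 0.00951 to 0.243 for Bcl11a. Replicate numbers do not pair the samples by the labels, and deviations of same-numbered libraries correlated at 0.042 over 585 genes; a fit with the replicate block called 65 genes (45 higher, 20 lower in mIDH1), and shares differed by the same 0.0643 and 1.23 percentage points. With 12 to 24 cells per library, genes of few UMIs could not be tested, and a state found in 0 cells of a library may have been missed.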
